A study of Arabidopsis thaliana with 2 samples.

Results

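The genes described here take up nitrate and ammonium and build them into amino acids in Arabidopsis thaliana. They are 52 loci listed by name, of 23667 loci with reads in the study, 23519 of them nuclear. They were chosen by function, but with earlier results of these data known. They comprise NRT1, NRT2 and NRT3.1 nitrate transporters, the vacuolar exchanger CLCA, AMT ammonium transporters and the reductases. Also included are the enzymes of glutamine, glutamate and asparagine synthesis, and regulators of the pathway. Reads of all transcript models of a locus were added up, and a locus not listed in a library was set to 0. Seedlings in the Col-0 background were 12 days old and had grown at 20 °C in long days on plates with 0.5X GM medium, untreated. One library came from the wild type, called Col-0 below, and the other from the genotype FMO5-OE T1, called FMO5-OE and read as overexpression of FMO GS-OX5, a flavin-containing monooxygenase that S-oxygenates glucosinolates. The sources used here do not give the promoter of the transgene, the number of lines or the meaning of T1. With 1 library for each genotype, the differences below have no replicate check and no p-value, and the genotype cannot be told apart from other differences between the libraries.

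Low-affinity carriers of the NRT1 family and high-affinity carriers of the NRT2 family take up nitrate in roots, the latter with the partner protein NRT3.1. Nitrate is reduced to nitrite in the cytosol and to ammonium in plastids, and glutamine synthetase and glutamate synthase then pass the nitrogen to amino acids. NIN-like proteins switch on the pathway when nitrate arrives, while HHO/HRS1 and LBD proteins are known as nitrate-induced repressors.

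Depth was similar, with 11.56 M reads counted in Col-0 against 12.21 M in FMO5-OE. The 52 genes took 0.564% of them (exact 95% interval 0.560% to 0.569%) in Col-0 and 0.655% (0.650% to 0.659%) in FMO5-OE. Both are shares of the unscaled totals, and their intervals cover counting error only. FMO GS-OX5 was counted 28 times in the Col-0 library and 1379 times in the FMO5-OE library, 43.6-fold higher (30.1 to 65.9), in the direction the label gives. NRT1.1 lies 11.7 kb from this gene on chromosome 1. Levels are given as CPM, counts scaled to the library total after TMM normalisation, and 5 CPM, the minimum used when genes were counted, stood for 55.9 reads in the Col-0 library and 63.1 in the other. Pairs of values give Col-0 first and FMO5-OE second. Ratios of CPM are FMO5-OE over Col-0, followed by an exact 95% interval that covers counting error only. Log2 ratios are of CPM + 1, which understates differences of low genes, and the 2-fold and 1.5-fold lines below are set on this scale. With the unscaled totals, the median log2 ratio of all nuclear loci at 5 CPM was 0.08, against -0.01 with TMM scaling.

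Most of the genes with enough reads lay slightly higher in the FMO5-OE library, and among them the HHO genes AT3G25790, AT1G25550 and AT1G68670, ASN1 and GDH2 were the farthest above their Col-0 level. Of the 52 genes, 38 reached 5 CPM in at least 1 library, 13 had reads below that and NRT2.2 had none. Among the 38, 29 had a log2 ratio above 0, as did 47.8% of the 13019 nuclear loci at this level. The median log2 ratio was 0.14 against -0.01 for all those loci. A log2 ratio of at least 1 was reached by 2 genes, ASN1 and the HHO gene AT3G25790, and by 0.737% of all loci. At least 1.5-fold higher were 5 genes, these 2 with GDH2 and the HHO genes AT1G25550 and AT1G68670, and 3.38% of all loci. No gene of the 38 was at least 1.5-fold lower, as 2.26% of loci were, or 2-fold lower, as 0.346% were. By counting error alone, the interval of the ratio lay above 1 for 21 of the 38 genes, included 1 for 12 and lay below 1 for 5. With total count CPM in place of TMM scaling these were 25, 12 and 1, the 1 being NRT1.5. The side of 1 was not counted over all loci, so these numbers do not set the 38 genes apart. The 5th and 95th percentiles of the log2 ratio were -0.25 and 0.79 for the 38 genes and -0.45 and 0.48 for all loci.

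**Figure D1:**
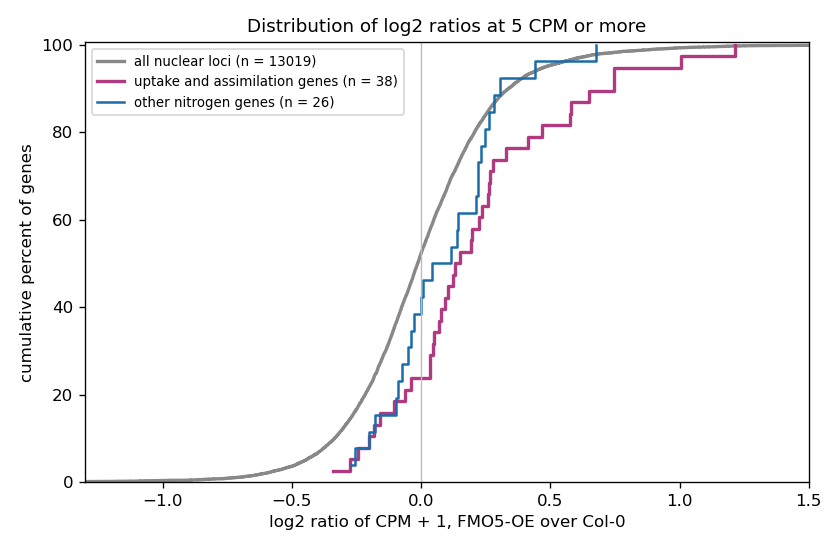
Cumulative distribution of the log2 ratio of CPM + 1, FMO5-OE over Col-0, for all 13019 nuclear loci, the 38 uptake and assimilation genes and 26 other nitrogen genes at 5 CPM or more. The curve of the 38 genes lies to the right of that of all loci over most of its course, with medians of 0.14 and -0.01.

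The HHO/HRS1 proteins are MYB-like transcription factors that repress NRT2 and other nitrogen starvation genes. All 4 were higher in FMO5-OE, as were the LBD repressors described below and 47.8% of all loci. Each had 1 listed model, covered by reads over at least 92.4% of its length in both libraries. AT3G25790 had 98 and 273 reads, 8.76 and 21.6 CPM, a ratio of 2.47 (1.95 to 3.14). AT1G25550 had 1366 and 2593 reads, 122 and 205 CPM, a ratio of 1.68 (1.57 to 1.80). AT1G68670 had 811 and 1442 reads, 72.5 and 114 CPM, a ratio of 1.58 (1.44 to 1.72). HRS1, named for a short primary root under low phosphate, had 514 and 731 reads, 46.0 and 57.9 CPM, a ratio of 1.26 (1.124 to 1.41). The interval of AT3G25790 lay above those of the other three genes, and that of HRS1 below them. The order of the levels was not that of the ratios. By CPM and per length AT3G25790 was the lowest of the 4, at 7.09 and 18.7 RPKM, and AT1G25550 the highest, at 84.6 and 152 RPKM.

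Since these 4 genes differed in the same direction, the 250 bases before each annotated gene start are shown, 5′ to 3′, from the RefSeq genome TAIR10.1. Capitals mark GAATC on either strand, a core known to be bound by this family, and the longest stretch common to AT3G25790 and HRS1, which was looked for after the sequences had been seen.
AT3G25790, chr3:9412802-9413051, plus strand: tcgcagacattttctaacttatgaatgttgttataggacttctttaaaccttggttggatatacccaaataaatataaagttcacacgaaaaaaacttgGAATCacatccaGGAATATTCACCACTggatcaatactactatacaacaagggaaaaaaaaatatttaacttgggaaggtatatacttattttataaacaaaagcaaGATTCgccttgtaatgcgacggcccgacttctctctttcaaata
HRS1, chr1:4556628-4556877, plus strand: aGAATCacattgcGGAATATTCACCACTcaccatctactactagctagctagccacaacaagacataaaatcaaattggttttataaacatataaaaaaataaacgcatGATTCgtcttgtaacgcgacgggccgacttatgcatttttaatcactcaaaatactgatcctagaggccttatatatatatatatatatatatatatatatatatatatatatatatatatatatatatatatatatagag
AT1G25550, chr1:8976076-8976325, plus strand: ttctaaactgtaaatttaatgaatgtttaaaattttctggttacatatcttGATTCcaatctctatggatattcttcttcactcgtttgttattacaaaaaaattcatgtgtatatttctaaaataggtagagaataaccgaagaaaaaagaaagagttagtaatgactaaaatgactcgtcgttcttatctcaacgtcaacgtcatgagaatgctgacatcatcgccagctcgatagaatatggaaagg
AT1G68670, chr1:25781551-25781800, plus strand: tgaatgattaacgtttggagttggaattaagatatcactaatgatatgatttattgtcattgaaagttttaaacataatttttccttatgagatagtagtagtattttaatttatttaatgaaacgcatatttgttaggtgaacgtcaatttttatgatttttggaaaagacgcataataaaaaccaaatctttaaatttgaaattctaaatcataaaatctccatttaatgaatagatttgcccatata
AT3G25790 and HRS1 share the 15 bases GGAATATTCACCACT, and of 27443 windows of this length these 2 alone hold them. The stretch was picked from these 2 windows, and a given run of 15 bases seldom recurs, so its absence elsewhere carries no weight. Counted from the gene start, the stretch begins at -139 in AT3G25790 and at -237 in HRS1. Other pairs of the 4 share at most 11 bases. GAATC was found 2 times in AT3G25790, 2 times in HRS1, 1 time in AT1G25550 and not in AT1G68670.

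Over all 52 genes, GAATC was found in 29 windows (55.8%), against 38.8% of all windows. Other motifs were searched on both strands in the same way, with any overlap between them allowed. CACGTG, the G-box, occurred in 2 windows (3.85% against 6.49%) and ACTCAT in 5 (9.62% against 12.3%). TGACG, the core bound by TGA factors, occurred in 11 (21.2% against 18.6%), and GATAAG in 11 (21.2% against 12.3%). These counts describe letters in a window and not binding.

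The LBD repressors lay closer to their Col-0 level. LBD37 had 3121 and 3839 reads, 279 and 304 CPM, a ratio of 1.09 (1.04 to 1.14). LBD38 had 1243 and 1640 reads, 111 and 130 CPM, a ratio of 1.17 (1.09 to 1.26), and LBD39 had 982 and 1169 reads, 87.8 and 92.6 CPM, a ratio of 1.05 (0.968 to 1.15), where the interval lay above 1 with total count CPM (1.03 to 1.23). The ratios of the 3 LBD genes were below those of all 4 HHO/HRS1 genes. Per length LBD37 was the highest of the repressors, at 164 and 190 RPKM.

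**Figure D2:**
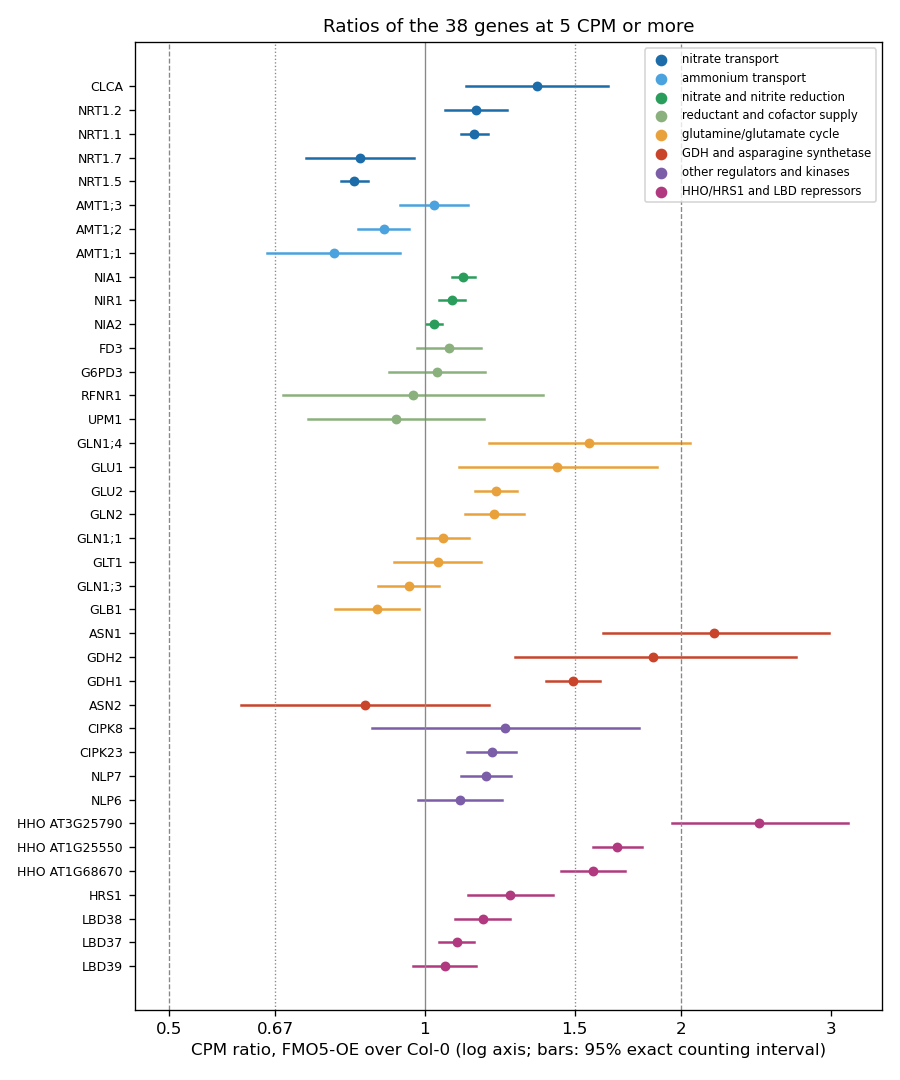
CPM ratio of FMO5-OE over Col-0 on a log axis for the 38 genes at 5 CPM or more, coloured by role, with bars for the exact 95% counting interval. The HHO gene AT3G25790 has the highest ratio, 2.47, and AMT1;1 the lowest, 0.781.

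Asparagine synthetase makes asparagine, in which plants carry and store nitrogen. ASN1, an isoform induced by darkness, had 62 and 153 reads, 5.54 and 12.1 CPM, a ratio of 2.19 (1.62 to 2.99). Both of its listed models were higher in FMO5-OE, one with 35 and 88 reads and the other with 27 and 65. ASN2 had 76 and 73 reads, 6.80 and 5.79 CPM, a ratio of 0.851 (0.609 to 1.19), and ASN3 had 8 reads in each library. ASN1 took 42.5% of the reads of the 3 genes in Col-0 (exact 95% interval 34.3% to 50.9%) and 65.4% in FMO5-OE (58.9% to 71.5%). The listed models of all 3 were covered over at most 14.2% of their length, so these shares do not show which isoform is the most abundant. ASN1 also overlaps AT3G47341 on the opposite strand, and without a stated use of strand the reads of the 2 loci cannot be told apart.

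Glutamate dehydrogenase is a mitochondrial enzyme known for releasing ammonium from glutamate when carbon is short. GDH1 and GDH2 were higher in FMO5-OE. GDH1 had 1171 and 1974 reads, 105 and 156 CPM, a ratio of 1.49 (1.39 to 1.61), and it overlaps AT5G18180 on the opposite strand. GDH2 had 43 and 90 reads, 3.85 and 7.13 CPM, a ratio of 1.85 (1.28 to 2.73). Of its listed models, one had 23 and 36 reads and the other 20 and 54. GDH3, on the list of other nitrogen genes and named after its values were seen, had 20 and 16 reads, a ratio of 0.709 (0.344 to 1.44), below 5 CPM. The log2 ratio of ASN1 was just past the 2-fold line, and GDH1, at 0.57, and GLN1;4, at 0.58, were just short of the 1.5-fold line on the log2 scale of CPM + 1.

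Nitrate and nitrite reductase genes differed little between the libraries. NIA2, the main nitrate reductase, had 14945 and 17277 reads, 1337 and 1369 CPM, a ratio of 1.02 (1.002 to 1.05). NIA1, the minor isoform, had 7198 and 9010 reads, 644 and 714 CPM, a ratio of 1.109 (1.08 to 1.14). NIR1, the plastid nitrite reductase, had 5651 and 6859 reads, 505 and 544 CPM, a ratio of 1.08 (1.04 to 1.114). All 3 ratios were above 1, as were those of 47.8% of all loci, and none reached the 1.5-fold line. NIA1 took 32.5% of the reads of the NIA pair in Col-0 (31.9% to 33.1%) and 34.3% in FMO5-OE (33.7% to 34.9%). Per length NIA2 was the highest of the well-covered genes, at 413 and 452 RPKM.

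Of 5 genes that supply electrons and cofactor to the reductases, the 4 at 5 CPM had ratios between 0.924 and 1.07. FD3, a ferredoxin of non-green plastids, had 965 and 1162 reads, 86.3 and 92.1 CPM, a ratio of 1.07 (0.979 to 1.16). G6PD3, a plastid glucose-6-phosphate dehydrogenase that yields NADPH, had 438 and 511 reads, 39.2 and 40.5 CPM, a ratio of 1.03 (0.908 to 1.18). It overlaps AT1G05867 and AT1G24290 on the opposite strand. UPM1, an enzyme on the way to siroheme, had 141 and 147 reads, 12.6 and 11.6 CPM, a ratio of 0.924 (0.728 to 1.17), and it overlaps AT5G40855 on the opposite strand. The intervals of these 3 genes include 1, although that of FD3 lay above 1 with total count CPM (1.05 to 1.24). RFNR1, a ferredoxin reductase of roots, had 65 and 71 reads, 5.81 and 5.63 CPM, a ratio of 0.968 (0.682 to 1.38). RFNR2, its relative, had 0 and 9 reads, for which the exact 95% lower limit of the ratio was 1.75, and it stayed below 5 CPM. RFNR2 has 3 annotated transcripts, and its reads covered 5.94% of the listed model, so they do not give its level.

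Nitrate transporters differed in both directions. NRT1.1, a transporter that also senses nitrate, had 5111 and 6591 reads, 457 and 522 CPM, a ratio of 1.14 (1.10 to 1.19). NRT1.2, a low-affinity transporter, had 998 and 1292 reads, 89.2 and 102 CPM, a ratio of 1.15 (1.06 to 1.25). NRT1.5, which loads nitrate into the root xylem, was lower in FMO5-OE, with 6035 and 5624 reads, 540 and 446 CPM, a ratio of 0.826 (0.796 to 0.857). It overlaps AT1G32440 on the opposite strand. The intervals of NRT1.1 and NRT1.5 lay on opposite sides of 1. Per length NRT1.5 was above NRT1.1 in Col-0, at 238 against 207 RPKM, and below it in FMO5-OE, at 210 against 253 RPKM. NRT1.7, which moves nitrate out of old leaves in the phloem, had 380 and 360 reads, 34.0 and 28.5 CPM, a ratio of 0.840 (0.725 to 0.972), and with total count CPM its interval included 1 (0.775 to 1.04). CLCA, which stores nitrate in the vacuole, had the highest ratio of the transporters at 5 CPM, with 180 and 275 reads, 16.1 and 21.8 CPM, a ratio of 1.35 (1.118 to 1.64), but it overlaps AT5G40880 on the opposite strand and was covered over at most 17.6% of its model.

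High-affinity nitrate transport genes had few reads in either library. NRT2.1, the main carrier of this kind, had 33 and 35 reads, 2.95 and 2.77 CPM, a ratio of 0.940 (0.567 to 1.56). Its partner NRT3.1 had 33 and 25 reads, which covered 13.0% and 12.3% of its model and do not give its level, and NRT2.7, known from seed vacuoles, had 25 and 29. NRT2.5 had 4 and 7 reads, and NRT2.6 had 2 and 4. NRT2.4, known to respond to nitrogen starvation, had 0 and 6 reads, for which the exact 95% lower limit of the ratio was 1.04. NRT2.2 had 0 reads, which allows levels of up to 0.268 and 0.238 CPM. It lies beside NRT2.1, and 11.4% of its stretches of 49 bases also occur there. NRT1.8, which takes nitrate back out of the xylem, had 19 and 18 reads, and it overlaps AT4G21670 on the opposite strand. For NRT1.8, NRT2.1, NRT2.5, NRT2.6, NRT2.7 and NRT3.1 every interval includes 1, so no difference was detectable from these reads.

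Ammonium transporters had a median log2 ratio of -0.16 over 3 genes at 5 CPM. AMT1;2 had 1607 and 1622 reads, 144 and 129 CPM, a ratio of 0.894 (0.834 to 0.959). AMT1;3 had 865 and 1000 reads, 77.4 and 79.2 CPM, a ratio of 1.02 (0.934 to 1.123). AMT1;1 had 262 and 231 reads, 23.4 and 18.3 CPM, a ratio of 0.781 (0.652 to 0.936). With TMM scaling the intervals of AMT1;1 and AMT1;2 lay below 1 and that of AMT1;3 included it. With total count CPM all 3 included 1, at 0.697 to 1.0004 for AMT1;1 and 0.892 to 1.02 for AMT1;2. AMT1;1 overlaps AT4G13505 on the opposite strand. AMT2;1 had 15 and 13 reads.

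**Figure D3:**
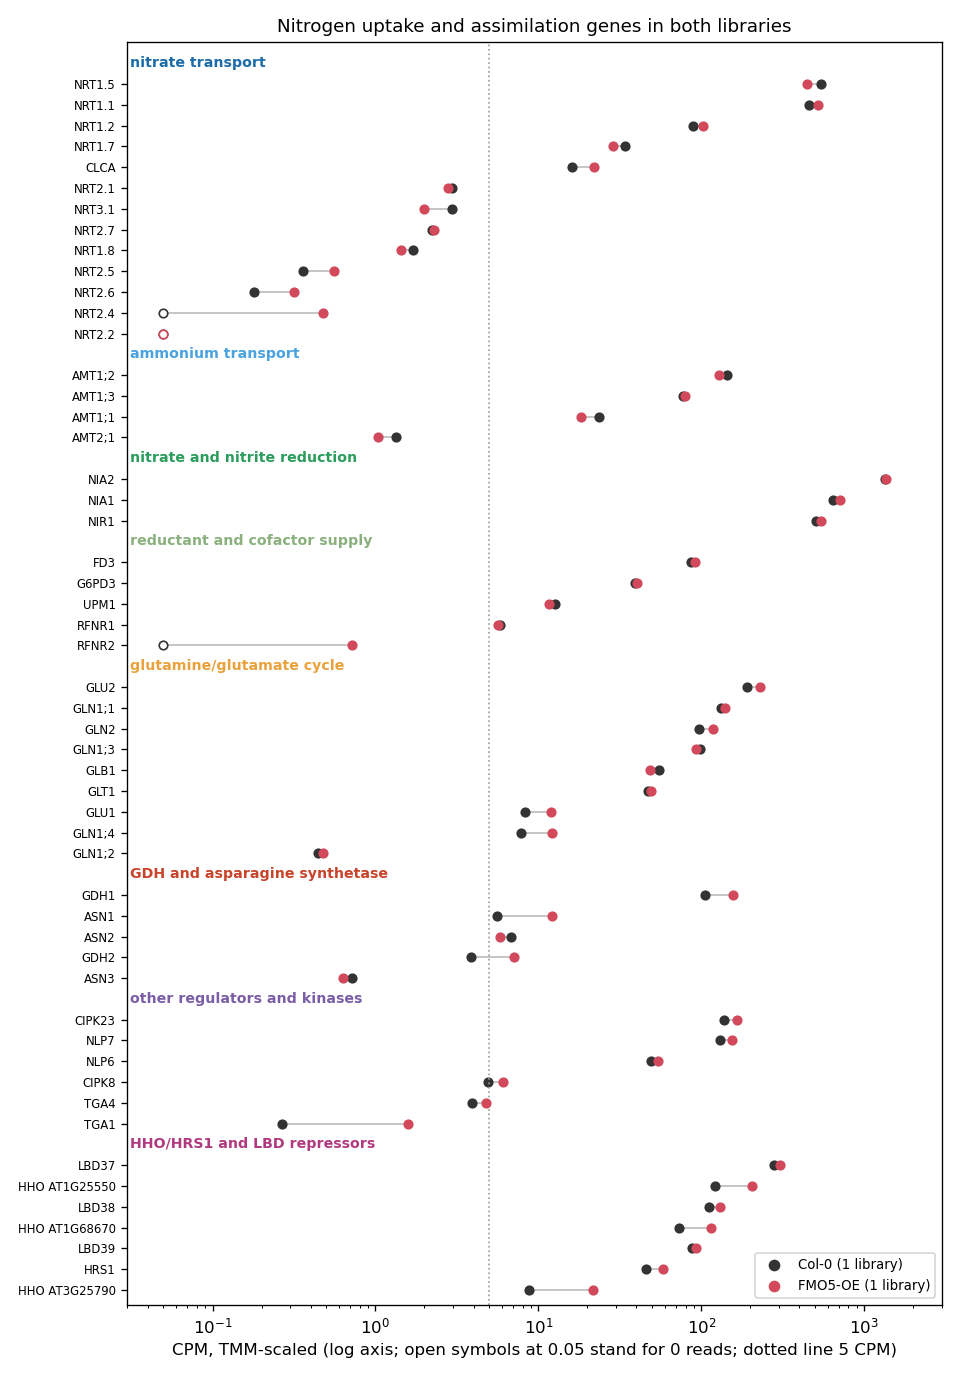
TMM-scaled CPM of each of the 52 genes on a log axis, grouped by role, with dark points for Col-0 and red points for FMO5-OE; open points stand for 0 reads. The NRT2 genes lie below 5 CPM in both libraries, and the points of ASN1, from 5.54 to 12.1 CPM, and of AT3G25790, from 8.76 to 21.6 CPM, stand apart. Levels of poorly covered genes such as ASN1 and GLU1 cannot be set against those of other genes.

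Glutamine synthetase genes did not share 1 ratio. GLN1;4, a cytosolic isoform, had 87 and 153 reads, 7.78 and 12.1 CPM, a ratio of 1.56 (1.19 to 2.05). Of the more abundant cytosolic isoforms, GLN1;1 had 1479 and 1752 reads, 132 and 139 CPM, a ratio of 1.05 (0.979 to 1.13), and GLN1;3 had 1091 and 1178 reads, 97.6 and 93.4 CPM, a ratio of 0.957 (0.880 to 1.04); with total count CPM the interval of GLN1;1 lay above 1 (1.05 to 1.20). The interval of GLN1;4 lay above both of theirs. It took 3.27% of the GLN1 reads in Col-0 (2.63% to 4.02%) and 4.95% in FMO5-OE (4.21% to 5.78%). GLN1;2 has 3 annotated transcripts and had 5 and 6 reads, which do not give its level. The shares of GLN1;4 are therefore shares of counted reads and need not be its shares of GLN1 transcripts. GLN2, the plastid isoform that takes up the ammonium of photorespiration, had 1087 and 1480 reads, 97.2 and 117 CPM, a ratio of 1.21 (1.115 to 1.31).

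Glutamate synthase passes the amide nitrogen of glutamine on to make glutamate. GLU1, the ferredoxin-dependent enzyme of leaves, had 93 and 150 reads, 8.32 and 11.9 CPM, a ratio of 1.43 (1.10 to 1.87), and it overlaps AT5G04150 on the opposite strand. GLU2, its relative, had 2124 and 2908 reads, 190 and 230 CPM, a ratio of 1.21 (1.15 to 1.28). GLT1, the NADH-dependent enzyme, had 528 and 617 reads, 47.2 and 48.9 CPM, a ratio of 1.04 (0.920 to 1.17), and it overlaps AT5G53470 on the same strand. The most-read model was covered over at most 5.69% in GLU1 and 6.81% in GLT1. Their levels cannot be set against that of GLU2. The intervals of both ferredoxin-dependent genes lay above 1, and that of GLT1 included it. GLB1, the PII protein of plastids, had 615 and 610 reads, 55.0 and 48.3 CPM, a ratio of 0.879 (0.785 to 0.985), and with total count CPM its interval included 1 (0.838 to 1.05). GLB1 overlaps AT4G01897 on the opposite strand.

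All 4 transcription factors and kinases of nitrate signalling at 5 CPM had ratios above 1, as did 47.8% of all loci. NLP7, a main transcription factor of the nitrate response, had 1458 and 1941 reads, 130 and 154 CPM, a ratio of 1.18 (1.10 to 1.26). NLP6, its relative, had 551 and 683 reads, 49.3 and 54.1 CPM, a ratio of 1.10 (0.980 to 1.23). CIPK23, a kinase that phosphorylates NRT1.1, had 1548 and 2093 reads, 138 and 166 CPM, a ratio of 1.20 (1.121 to 1.28). The intervals of NLP7 and CIPK23 lay above 1, and those of NLP6 and of CIPK8, a related kinase with 55 and 77 reads, included it; with total count CPM that of NLP6 lay above 1 (1.05 to 1.32). TGA4, a bZIP factor of the nitrate response in roots, had 44 and 60 reads, and it overlaps AT5G10040 and AT5G10050 on the opposite strand. Its relative TGA1 had 3 and 20 reads, a ratio of 5.91 (1.75 to 31.0), and stayed below 5 CPM. TGA1 has 7 annotated transcripts, and its most-read model was covered over 4.59% and 16.0%, so these reads do not give its level.

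Of 45 other genes of nitrogen transport, assimilation and its control, 26 reached 5 CPM, 16 of these had a log2 ratio above 0, against 47.8% of all loci, and the median was 0.08. None of the 26 was at least 2-fold apart, against 0.737% of all loci higher and 0.346% lower. At least 1.5-fold higher was 1 of 26, near the 3.38% of all loci. This was CPK32, a calcium-dependent kinase that phosphorylates NLP7, with 1062 and 1923 reads, 94.97 and 152 CPM, a ratio of 1.605 (1.49 to 1.73). Its partners in that role, named after their values were seen, did not reach this size, as CPK10 had 475 and 632 reads and CPK30 had 280 and 307. NRT2.3, also named after its values were seen, had 22 and 4 reads, 6.21-fold lower in FMO5-OE (2.11 to 24.8), below 5 CPM in both libraries. Of the 45 loci, 3 had 0 reads, and 1 of these, AT4G24720, has no entry in the annotation, so that its 0 says nothing of expression.

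Several of these genes act mainly in roots or in leaves, and in whole-tissue RNA fewer cells of a type and less RNA per cell cannot be told apart. All 14 root markers had reads in both libraries and summed to 492 and 453 CPM, a ratio of 0.920, with 5 of 14 higher in FMO5-OE. All 10 leaf markers had reads in both libraries and summed to 24003 and 20622 CPM, a ratio of 0.859, with 1 of 10 higher. The higher one, GOX1, stayed below 5 CPM. At 5 CPM, 4 of 11 root markers and 0 of 9 leaf markers had a log2 ratio above 0, against 47.8% of all loci. LHCB3 alone gave 8740 and 7482 CPM of the leaf sums. Some leaf markers were covered over little of their model, RCA over 5.13%. The part of tissue make-up in the ratios above was not tested.

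How much of a transcript was covered by the counted reads differed among these genes. With 50 reads or more over both libraries there were 42 genes. In the library where it was covered best, the most-read model was covered over at least 50.9% of its length in 28 genes and over 4.54% to 22.6% in 14. The lowest of the 28 was NRT2.1, with 38.0% in Col-0 and 50.9% in FMO5-OE. Of the 14, 13 have several transcripts or an overlapping gene in the annotation, the exception being NRT2.7, as against 11 of the 28. The 14 are NRT2.7, NRT3.1, CLCA, AMT1;1, UPM1, RFNR1, GLN2, GLU1, GLT1, GDH2, ASN1, ASN2, CIPK8 and TGA4, and their levels cannot be set against those of other genes. Among the 27 well-covered genes at 5 CPM, 22 had a log2 ratio above 0, against 47.8% of all loci, and the median was 0.13. At least 1.5-fold higher were 3 of them, the HHO genes AT3G25790, AT1G25550 and AT1G68670, against 3.38% of all loci. Both shares are of all nuclear loci at 5 CPM, whatever their coverage.

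**Figure D4:**
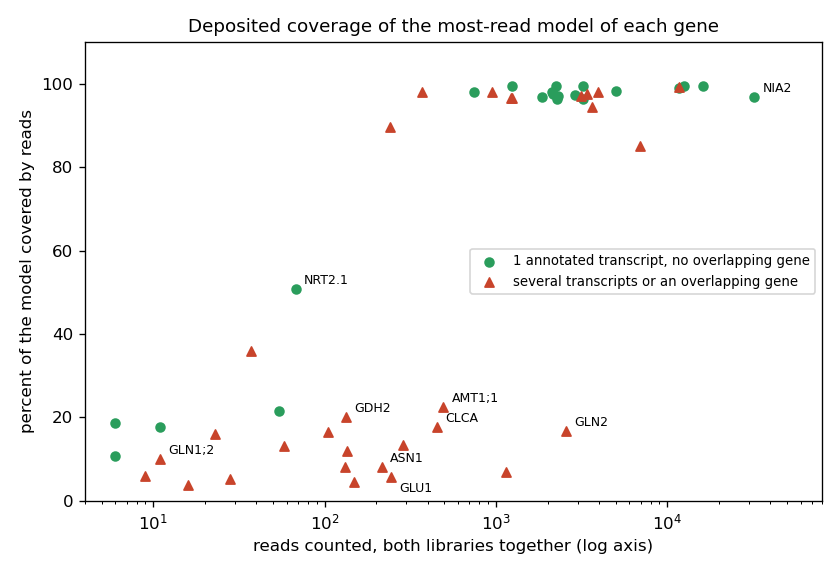
Percent of the most-read model covered by reads, as deposited, in the library where it was higher, against the reads of both libraries on a log axis, for the 51 genes with reads; triangles are genes with several annotated transcripts or an overlapping gene. NIA2 lies near full coverage, while ASN1, GDH2, GLN2, GLU1, AMT1;1 and CLCA lie at or below 22.6%.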

How the data were processed

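Total RNA of seedlings was sequenced, 1 library per genotype. The deposited counts are whole numbers of unique reads for each transcript model, listed with the model's length and covered percent, per the file headers. The submitters' processing notes name the build TAIR10. Aligner, counting program and use of strand are not given in these sources. The authors' RPKM were not used, and RPKM were recomputed from counts, lengths and library totals. Counts were summed per locus and scaled by TMM factors (0.967 in Col-0, 1.03 in FMO5-OE) from edgeR 4.0.16, so that 1 read stood for 0.0894 and 0.0792 CPM. Intervals are exact Clopper-Pearson at 95% and cover counting error only. There is no test, since neither genotype has a replicate. The code that counts genes past a fold was checked on simulated counts. These held counting error only, so the check says nothing of variation between plants or libraries.

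The members and gene lists were chosen with earlier results of these data known. Reads and CPM were given for members at least 1.5-fold apart and for the 3 with the highest mean CPM in each role. Other members were named beyond that rule to account for each, most with their values. HHO genes carry locus names, as their annotation has no symbol. Overlaps, shared 49-base stretches and windows of 250 bases came from TAIR10.1. Alternatives were size factors from DESeq2 1.42.0, total count CPM, a pseudocount of 0.1 or 5 in place of 1, the model with most reads, single-model loci, and a minimum of 20 CPM or none. Software was Python 3.11.15 with scipy 1.17.1, numpy 2.4.6, matplotlib 3.10.9 and pandas 2.3.3, and R 4.3.3.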

Additional observations from a re-analysis of the deposited data

How the results depend on the processing

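No paired analysis was possible because each genotype was sequenced in 1 library, and for the same reason no library could be left out. Of 221 log2 ratios of single genes under other scalings, pseudocounts or models, 212 stayed within their counting interval. For genes with 1 listed model, the most-read-model and single-model settings use the same counts. Those ratios could not move, so 212 overstates how much was tested. The 9 outside their interval all came from total count CPM, where RFNR1 and GLN1;3 changed sign, to 0.04 and 0.03. With that scaling the median was 0.24 against 0.08 for all loci, 31 of 38 genes lay above 0 against 63.2% of all loci, and 7 genes were at least 1.5-fold higher against 4.87%. Under it the interval of 8 genes changed side of 1, and under DESeq2 size factors that of 0. The number at least 2-fold higher, 2, became 0 with a pseudocount of 5, where ASN1 had 0.70 and AT3G25790 0.95 and the share of all loci was 0.323%. It became 3 without a minimum, with TGA1 added and a share of 0.557%. It became 1 with the model with most reads (share 0.736%), with single-model loci (0.704%), at a minimum of 20 CPM (0.713%), and for models covered over at least 50% in either library, an alternative chosen after seeing the data. The number at least 1.5-fold higher, 5, became 3 with single-model loci (31 genes, share 3.34%), at 20 CPM (30 genes, 2.79%) and for well-covered models (27 genes). For well-covered models no share of all loci limited in the same way was counted. Without a minimum, 1 other nitrogen gene was 2-fold apart, NRT2.3. The median of the genes ran from 0.13 to 0.24. Of 34 shares, 26 stayed within their interval per kilobase. For the 14 genes below 5 CPM, wide intervals or 0 reads leave the ratio little known. Depth is not the only limit. Some of them, such as GLN1;2 with 3 annotated transcripts and TGA1 with 7, were covered over little of their model.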
